A study of Homo sapiens with 4 samples.

Results

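The genes described are 10 members of the metalloproteinase system: the matrix metalloproteinases MMP8, MMP9, MMP14 and MMP25, their tissue inhibitors TIMP1 and TIMP2, the membrane proteases ADAM8, ADAM10 and ADAM17, and the secreted protease ADAMTS10. They were listed by name and taken from the 67062 rows of a table of read counts per Ensembl gene, after the IDs were matched to symbols. All 10 were matched and all 10 were abundant enough to be fitted, among 15918 fitted genes. They were chosen by gene family, with the fold changes and test results of PIG-LONA against PIG-EMPTY in these same 4 libraries in view. The levels and fold changes of the 10 genes are therefore given as a description, with no test.

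The cells were OCI-AML3, an established human acute myeloid leukaemia line with a mutant cytoplasmic NPM1. Every culture was transduced with the retroviral vector pMSCV-PIG, which carries puromycin resistance and GFP behind the PGK promoter, and was sorted for GFP-positive cells. In the PIG-LONA group the vector also drove the long noncoding RNA LONA, and in the PIG-EMPTY group it held no insert. Each group had 2 libraries of polyadenylated RNA from separate transductions of the same line, so the spread between libraries covers repeat transductions and not other patients or lines. The level of LONA is not reported here, and the group labels stand without a check from that transcript.

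Metalloproteinases cut proteins with a zinc ion held in the active site. The MMPs are made as inactive precursors and degrade matrix proteins such as collagens and gelatins, and in neutrophils the collagenase MMP8 and the gelatinase MMP9 are stored in granules. ADAMs are membrane-bound and shed the outer parts of cell surface proteins, and ADAMTS proteins are secreted and act on matrix. TIMPs bind the active site and block it. In the myeloid lineage these genes are known for their part in the maturation, migration and surface shedding of monocytes and granulocytes.

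The feature that makes 8 of the 10 genes proteases is a short zinc-binding stretch of 11 codons, in which 3 histidines hold the metal and a glutamate next to the first of them acts in catalysis. It is shown here because it separates the enzymes from the inhibitors. The 33 coding bases were read from the longest coding transcript of each gene in GENCODE release 29 (GRCh38), with the 3 histidine codons and the glutamate codon in capitals.
MMP8 (chr11:102718517-102718549, minus strand, exon 5): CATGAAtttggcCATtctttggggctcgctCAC
MMP9 (chr20:46012453-46012485, plus strand, exon 8): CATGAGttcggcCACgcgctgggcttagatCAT
MMP14 (chr14:22843283-22843315, plus strand, exon 5): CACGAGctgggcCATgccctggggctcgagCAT
MMP25 (chr16:3057068-3057100, plus strand, exon 5): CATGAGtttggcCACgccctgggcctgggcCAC
ADAM8 (chr10:133271880-133271912, minus strand, exon 11): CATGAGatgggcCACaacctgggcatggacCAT
ADAM10 (chr15:58627881-58633225, minus strand, across exons 9 and 10): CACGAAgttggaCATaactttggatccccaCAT
ADAM17 (chr2:9510078-9510110, minus strand, exon 11): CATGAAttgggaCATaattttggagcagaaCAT
ADAMTS10 (chr19:8596204-8596323, minus strand, across exons 9 and 10): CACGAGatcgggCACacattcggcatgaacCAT

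Each of the 8 enzymes held the stretch once. TIMP1 (207 codons) and TIMP2 (220 codons) held 0. The fewest identical bases were 16 of 33, for ADAM10 against MMP9 and against MMP25. The most were 26 of 33, for MMP25 against MMP9 and against ADAM8. MMP8 and MMP9 shared 22 of 33, and ADAM10 and ADAM17 shared 25 of 33.

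Total counts ran from 29819572 to 38358442 per library, and mitochondrial transcripts took 6.32% to 7.10% of them. Of 8 markers of the labelled line (CD33, MPO, PTPRC, SPI1, HOXA9, MEIS1, NPM1 and CSF3R) all 8 were detected. Their summed level was 2714 and 2719 CPM (counts scaled to the TMM-adjusted total of the library) in PIG-EMPTY against 2697 and 2665 CPM in PIG-LONA, of which NPM1 alone had 1768 to 1813 CPM. Of the 8, 7 had a log2 fold change below 0, with a median of -0.06. The groups did not overlap in 4 of the 8, all lower, against 48.0% of all 15918 fitted genes (24.4% lower and 23.7% higher). The myeloid transcription factor SPI1 fell, from 224 and 228 CPM in PIG-EMPTY to 210 and 202 CPM in PIG-LONA (log2 fold change -0.13 ± 0.04, edgeR adjusted p = 0.0346). Of 15 markers of fibroblasts, lymphocytes, red cells, endothelium and epithelium, CD3E, CD3D, MS4A1, HBB and EPCAM were among those at 0 in all 4 libraries. The 14 apart from PECAM1 summed to 0.840 and 1.17 CPM in PIG-EMPTY against 0.969 and 1.17 CPM in PIG-LONA. PECAM1, which myeloid cells also express, fell from a mean of 32.7 CPM in PIG-EMPTY to 26.3 CPM in PIG-LONA (log2 fold change -0.31 ± 0.06, edgeR adjusted p = 0.00190). The calls of SPI1 and PECAM1 were not examined with other filters, scaling or tests, or with a library left out. The part of these markers in the differences between the groups was not tested.

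MMP9 and MMP8 were lower and ADAMTS10 was higher in PIG-LONA, each with both libraries of a group on the same side of both libraries of the other. In bulk RNA, fewer cells that express a gene and less RNA per cell cannot be told apart. MMP14, MMP25 and ADAM8 had lower means with smaller and less even differences. TIMP1, TIMP2, ADAM10 and ADAM17 differed by less than 1.1-fold between the group means. In the edgeR quasi-likelihood fit over all genes, 3 of the 10 lay under an adjusted p of 0.05 (Benjamini-Hochberg), 2 lower and 1 higher. Over all 15918 genes 6.43% did, 3.50% lower and 2.93% higher. The groups did not overlap in 6 of the 10 genes, 5 lower and 1 higher, against 48.0% of all genes (24.4% lower and 23.7% higher). Since that comparison was known when the genes were listed, nothing is read from these counts. The median log2 fold change of the 10 was -0.14, and of all tested genes 0.00.

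**Figure D1:**
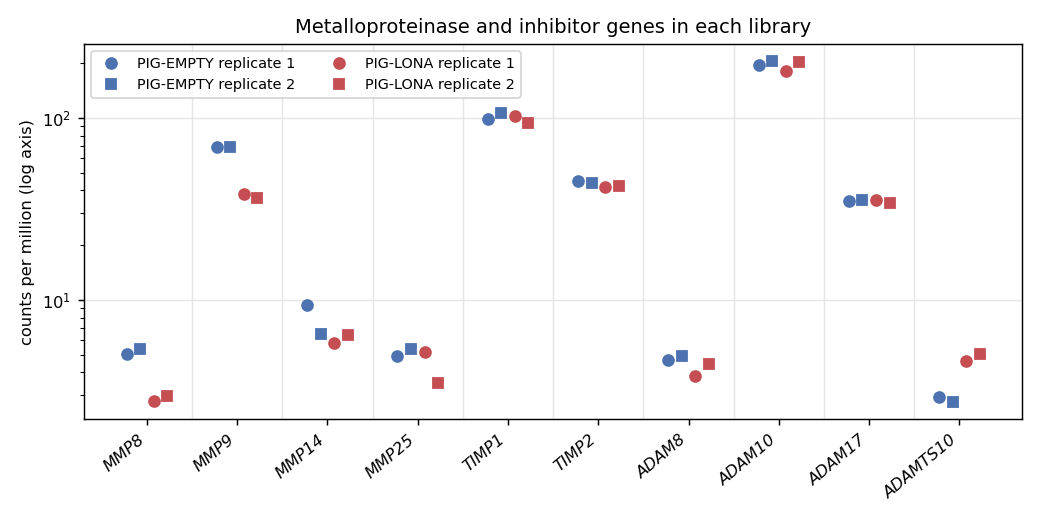
Level of each of the 10 genes in CPM (log axis) in the 4 libraries, blue for PIG-EMPTY and red for PIG-LONA, circles for replicate 1 and squares for replicate 2. MMP8 and MMP9 are lower and ADAMTS10 is higher in both red points, while TIMP1, ADAM10 and ADAM17 have red points among or close to the blue ones.

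MMP9 (ENSG00000100985, chromosome 20, 46008908 to 46016561, GRCh38, plus strand) encodes gelatinase B, which cuts denatured collagen and basement membrane collagen. Its level was 69.5 and 69.5 CPM with the empty vector against 38.5 and 36.2 CPM with LONA, from 1152 to 2257 counts. Both PIG-LONA libraries were thus far below both PIG-EMPTY libraries, and the libraries of each group lay close together. The log2 fold change was -0.90 ± 0.05 (SE from the fit, n = 2 per group), or 1.86-fold lower. Its 95% interval, which like the others given here is for 1 gene and not adjusted for the number of genes, ran from -1.003 to -0.793. The value lay between -0.94 and -0.85 when each library was left out in turn. SLC12A5-AS1 on the other strand shares 430 exon bases with MMP9 and had 36 to 50 counts per library.

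MMP8 (ENSG00000118113, chromosome 11, 102711795 to 102727050, minus strand) encodes neutrophil collagenase, which cuts fibrillar collagens. Counts were 150 and 174 in PIG-EMPTY against 83 and 114 in PIG-LONA, which gave 5.04 and 5.36 against 2.77 and 2.96 CPM. The groups did not overlap, and the log2 fold change was -0.85 ± 0.15 (1.81-fold lower), with a 95% interval from -1.16 to -0.54. Leaving out each library in turn gave -0.91 to -0.81. The fold changes of MMP8 and MMP9 were thus within their standard errors of each other, although MMP9 was the more abundant transcript by far. Per kilobase of exon MMP9 had a mean of 29.75 in PIG-EMPTY and 15.99 CPM per kb in PIG-LONA, and MMP8 had 1.51 and 0.834.

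The bases before the start of MMP8 and of ADAMTS10 are shown because, among the 7 genes with a RefSeq entry, they had the lowest and the highest fold change. The windows hold 250 bases (GRCh38.p14), and matches to any of 3 motifs on either strand are in capitals. The motifs were the AP-1 site TGANTCA, the C/EBP site TTGCNNAA and the PU.1 site GAGGAAG, where N is any base, and no matches overlapped. The MMP8 window is chr11:102724955-102725204 and the ADAMTS10 window chr19:8610716-8610965, both on the minus strand. The MMP8 window lies inside the GENCODE span of the gene, before the RefSeq start. ADAMTS10 has another RefSeq start, whose window (chr19:8592217-8592466) is not shown.
MMP8: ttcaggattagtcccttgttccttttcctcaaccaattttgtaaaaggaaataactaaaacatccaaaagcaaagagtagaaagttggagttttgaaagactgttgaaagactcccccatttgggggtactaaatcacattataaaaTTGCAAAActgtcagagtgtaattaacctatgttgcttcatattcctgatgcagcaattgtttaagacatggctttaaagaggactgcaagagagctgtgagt
ADAMTS10: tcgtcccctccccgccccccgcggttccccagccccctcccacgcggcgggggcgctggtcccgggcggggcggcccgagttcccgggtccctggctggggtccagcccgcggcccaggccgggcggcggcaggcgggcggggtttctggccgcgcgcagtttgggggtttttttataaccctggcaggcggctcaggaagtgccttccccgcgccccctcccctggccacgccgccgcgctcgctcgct

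The MMP8 window held 1 C/EBP match, which begins 103 bases before the start, and 36.4% of its bases were G or C. The ADAMTS10 window held no match to these letters and was 78.4% G or C. Among the windows of the other genes with an entry (MMP14, TIMP1, ADAM8, ADAM10 and ADAM17), the window of ADAM10 held 2 matches to the PU.1 letters and the others held none to any of the 3. Of 35116 RefSeq windows of the same length, 6.57% held the AP-1 letters, 9.05% the C/EBP letters and 11.2% the PU.1 letters. A match is a description of the letters and not of binding. MMP9, MMP25 and TIMP2 were not analysed here for promoter letters.

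MMP14 and MMP25 encode membrane-anchored MMPs. MMP14 (ENSG00000157227, chromosome 14, 22836557 to 22849027, plus strand) cuts collagen at the cell surface and, with TIMP2 as an adaptor, activates the precursor of MMP2. Its level was 9.34 and 6.53 CPM in PIG-EMPTY against 5.81 and 6.45 CPM in PIG-LONA. PIG-EMPTY replicate 1 stood above the other 3 libraries, and PIG-EMPTY replicate 2 was within 0.1 CPM of PIG-LONA replicate 2. Its log2 fold change of -0.35 ± 0.14 was -0.08 without PIG-EMPTY replicate 1 and -0.60 without PIG-EMPTY replicate 2, so the size of the difference rested on PIG-EMPTY replicate 1.

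MMP25 (ENSG00000008516, chromosome 16, 3046681 to 3060726, plus strand) encodes a lipid-anchored MMP of leukocytes. It was at 4.94 and 5.36 CPM in PIG-EMPTY against 5.15 and 3.51 CPM in PIG-LONA. PIG-LONA replicate 1 lay between the PIG-EMPTY libraries and PIG-LONA replicate 2 below all of them. The log2 fold change was -0.28 ± 0.16 with all libraries, 0.00 without PIG-LONA replicate 2 and -0.55 without PIG-LONA replicate 1. MMP25-AS1 on the other strand shares 1454 of its exon bases and had far more counts than MMP25, 1057 to 1204 against 135 to 174. Because the strand setting of the counting is not given in the sources used here, the assignment of reads between MMP25 and MMP25-AS1 is uncertain. MMP25-AS1 had a log2 fold change of -0.03 ± 0.07.

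The inhibitors differed little between the groups. TIMP1 (ENSG00000102265, chromosome X, 47582313 to 47586789, plus strand), a secreted inhibitor that also binds the precursor of MMP9, was at 99.4 and 107 CPM in PIG-EMPTY against 103 and 93.9 CPM in PIG-LONA. The groups overlapped, with a log2 fold change of -0.07 ± 0.05 and a 95% interval from -0.17 to 0.03. TIMP2 (ENSG00000035862, chromosome 17, 78852977 to 78925387, minus strand), the partner of MMP14, was at 44.9 and 43.8 CPM in PIG-EMPTY against 41.6 and 42.3 CPM in PIG-LONA. Both PIG-LONA libraries of TIMP2 were below both PIG-EMPTY libraries by a small margin. Its log2 fold change was -0.08 ± 0.05, with a 95% interval from -0.19 to 0.03.

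With TIMP1 nearly level and MMP9 lower, the ratio of the transcripts shifted. MMP9 per kilobase over TIMP1 per kilobase was 0.461 and 0.428 for PIG-EMPTY against 0.246 and 0.255 for PIG-LONA. Over TIMP2 it was 3.74 and 3.83 against 2.23 and 2.07. Both ratios were lower in both PIG-LONA libraries. They compare transcript levels in bulk RNA and not protein or protease activity.

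Of the shedding proteases, ADAM10 and ADAM17 are broadly expressed and cut Notch receptors, tumour necrosis factor and cytokine receptors among many others. ADAM10 (ENSG00000137845, chromosome 15, 58588807 to 58749978, minus strand) was at 196 and 206 CPM in PIG-EMPTY against 181 and 203 CPM in PIG-LONA. PIG-LONA replicate 1 was the lowest library and PIG-LONA replicate 2 lay between the PIG-EMPTY libraries. The log2 fold change was -0.07 ± 0.05 with all libraries and 0.01 without PIG-LONA replicate 1. ADAM17 (ENSG00000151694, chromosome 2, 9488486 to 9556732, minus strand), also called TNF-alpha converting enzyme, was at 35.0 and 35.7 CPM in PIG-EMPTY against 35.4 and 34.3 CPM in PIG-LONA. The groups overlapped, and the log2 fold change of -0.02 ± 0.06 had a 95% interval from -0.14 to 0.09. IAH1 on the other strand shares 1323 exon bases with ADAM17 and had 984 to 1273 counts, close to the 1043 to 1317 of ADAM17, so reads of this pair are uncertain too.

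ADAM8 (ENSG00000151651, chromosome 10, 133262403 to 133276868, minus strand), a protease of myeloid cells, was at 4.70 and 4.90 CPM in PIG-EMPTY against 3.81 and 4.45 CPM in PIG-LONA. Both PIG-LONA libraries were lower, and PIG-LONA replicate 2 was the nearer to PIG-EMPTY. The log2 fold change was -0.21 ± 0.14, with a 95% interval from -0.50 to 0.09.

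ADAMTS10 (ENSG00000142303, chromosome 19, 8580242 to 8610735, minus strand), a secreted protease tied to fibrillin microfibrils, went the other way. Counts were 87 and 89 in PIG-EMPTY against 139 and 193 in PIG-LONA, which gave 2.92 and 2.74 against 4.64 and 5.02 CPM. The groups did not overlap, and the log2 fold change was 0.78 ± 0.15, or 1.72-fold higher, with a 95% interval from 0.46 to 1.10. Leaving out each library in turn gave 0.72 to 0.83.

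**Figure D2:**
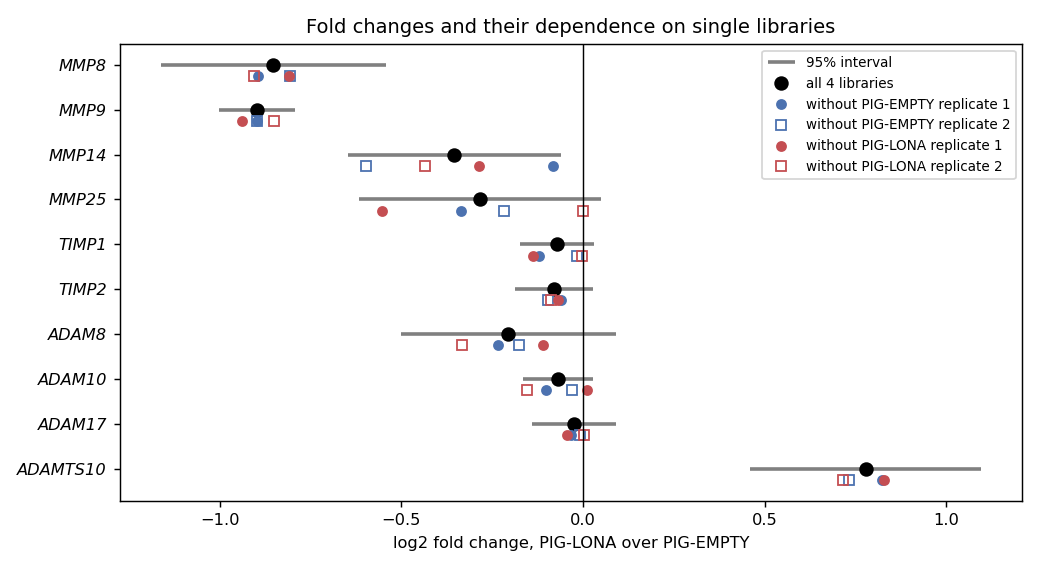
Log2 fold change of each gene in PIG-LONA over PIG-EMPTY (black point, all 4 libraries) with its 95% interval (grey bar), and the value when 1 library is left out (small symbols). MMP8 and MMP9 stay between -0.94 and -0.81 and ADAMTS10 between 0.72 and 0.83, whereas MMP14 moves from -0.60 to -0.08 and MMP25 from -0.55 to 0.00.

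Levels of different genes were compared per kilobase of exon, from the union of all GENCODE exons of a gene, which is longer than most single transcripts. Over the 4 libraries TIMP1 had a mean of 65.5 CPM per kb, MMP9 22.9, ADAM10 12.1, TIMP2 7.66 and ADAM17 3.26. The libraries of these neighbours did not overlap, but their order rests on the exon lengths. These were 16168 bases for ADAM10 and 10750 for ADAM17 against 2336 for MMP9. Before division by length ADAM10 (181 to 206 CPM) was above TIMP1 (93.9 to 107 CPM) and MMP9 (36.2 to 69.5 CPM). Per kilobase MMP14, MMP25, MMP8, ADAM8 and ADAMTS10 were all lower, with means of 0.672 to 1.58 CPM per kb. In PIG-EMPTY, MMP14 (2.09 and 1.46 CPM per kb) overlapped MMP8 (1.47 and 1.56), while ADAMTS10 (0.512 and 0.480) was the lowest. In PIG-LONA, ADAMTS10 (0.814 and 0.880 CPM per kb) overlapped MMP8 (0.807 and 0.862), ADAM8 (0.797 and 0.930) and MMP25 (1.25 and 0.851).

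Set among their families, the 10 genes were not always the main transcripts. MMP2, the other gelatinase, took 55.0% and 55.8% of the summed CPM per kb of 23 MMP genes in PIG-EMPTY against 62.3% and 63.5% in PIG-LONA. MMP9 was second, with 28.9% and 28.8% in PIG-EMPTY against 20.1% and 19.9% in PIG-LONA. The summed level of the MMP family was 103.1 and 103.3 CPM per kb in PIG-EMPTY against 82.1 and 78.1 in PIG-LONA. TIMP3, which is held in the matrix, was the leading inhibitor with 62.4% to 64.1% of the TIMP family sum, TIMP1 followed with 31.9% to 33.8%, and TIMP4 had 0 counts. By this measure ADAM10 (26.7% to 29.8%) stood behind ADAM15 (39.5% to 42.9%) among 21 ADAM genes. Before division by length ADAM10 had the higher level (181 to 206 CPM against 111 to 120 CPM), with 16168 exon bases against 6584. ADAMTS10 took 2.495% and 2.349% of the sum of 19 ADAMTS genes in PIG-EMPTY against 4.099% and 4.889% in PIG-LONA, and ADAMTS1 led that family with 57.9% to 61.3%.

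**Figure D3:**
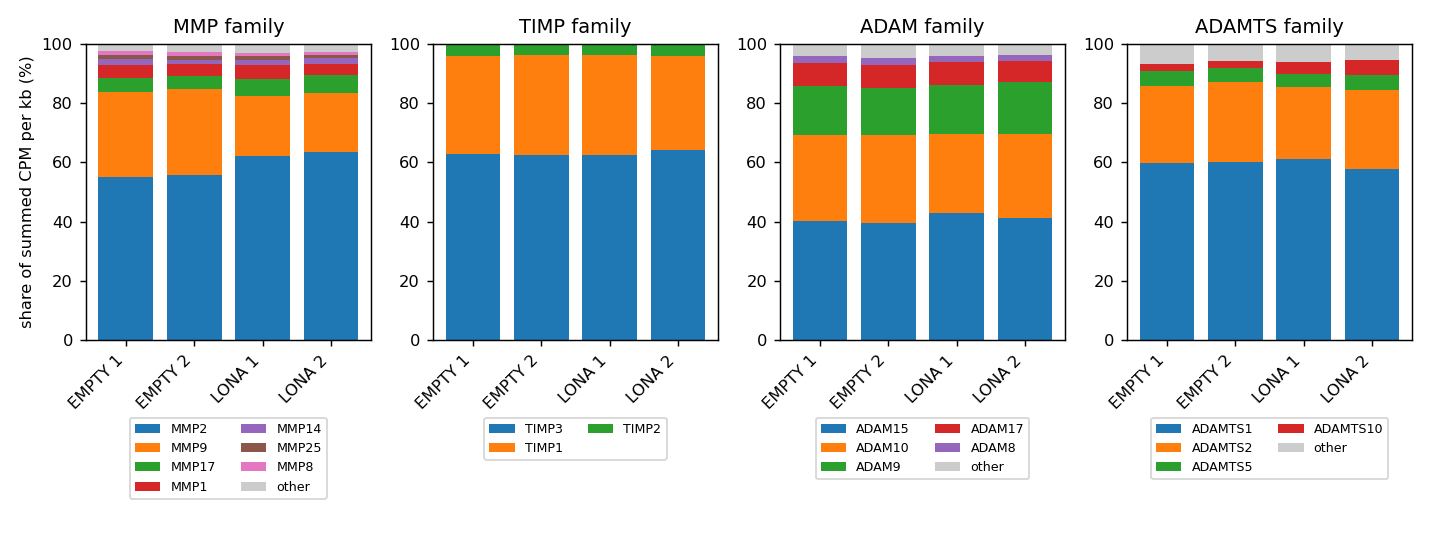
Share of each gene in the summed CPM per kilobase of its family (percent), for the 4 libraries. The MMP9 share is lower in both PIG-LONA libraries (20.1% and 19.9%) than in both PIG-EMPTY libraries (28.9% and 28.8%), while the shares of TIMP1, TIMP2 and TIMP3 are nearly the same in the 4 libraries.

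Other genes of the system were taken as 11 lists with 190 genes, of which 111 were abundant enough to be tested and 25 had 0 counts. At an edgeR adjusted p under 0.05, 3.50% of all 15918 tested genes fell and 2.93% rose, with a median log2 fold change of 0.00. Of the 111 list genes, 27 fell, 3 rose and 81 did not pass (edgeR adjusted p under 0.05), with a median log2 fold change of -0.12. The falls numbered 16 and the rises 2 with DESeq2, and 15 and 2 without PIG-EMPTY replicate 2. The lists were chosen with earlier results of these data known, so their counts are not independent evidence of a direction. The test was the same edgeR fit for every gene named next.

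Of 19 other MMP genes, 8 were tested and 2 fell. MMP2 was at 280 and 285 CPM in PIG-EMPTY against 252 and 245 CPM in PIG-LONA, a small decrease (log2 fold change -0.18 ± 0.04, edgeR adjusted p = 0.00301) that did not pass without PIG-EMPTY replicate 2. MMP19 was near the limit of detection, with 14 and 23 counts in PIG-EMPTY against 7 and 7 in PIG-LONA (-1.52 ± 0.45, edgeR adjusted p = 0.0480), and its call was lost in 6 of 10 other settings. MMP7, MMP20 and MMP28 had 0 counts. Of 18 other ADAM genes, 7 were tested and 0 passed in edgeR (2 at an unadjusted p under 0.05, and 0 with DESeq2), although 2 were higher and 1 lower without PIG-LONA replicate 1. ADAM15 and ADAM9, the most abundant of them, had log2 fold changes of 0.10 ± 0.04 (edgeR adjusted p = 0.168) and 0.10 ± 0.05 (edgeR adjusted p = 0.328).

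Of 25 other ADAMTS and ADAMTS-like genes, 11 were tested, of which 3 fell and 0 rose. The groups did not overlap with PIG-LONA lower in 5 of the 11 and higher in 2, against 24.4% and 23.7% of all genes. ADAMTS3, which processes procollagen, had 19 and 25 counts in PIG-EMPTY against 2 and 7 in PIG-LONA (log2 fold change -2.39 ± 0.48, edgeR adjusted p = 0.00371). ADAMTS4, an aggrecan-cutting protease, had 21 and 29 against 8 and 6 counts (-1.95 ± 0.42, edgeR adjusted p = 0.00621) and did not pass without the low-count filter, or when replicate 2 of either group was left out. ADAMTS2, another procollagen protease, was at 46.7 and 48.0 CPM against 42.1 and 41.9 CPM (-0.17 ± 0.05, edgeR adjusted p = 0.0451), a call lost in 7 of 12 other settings. With DESeq2, 0 of the 11 were called, and it gave no adjusted p for ADAMTS3 and ADAMTS4. ADAMTS1, the most abundant, had a log2 fold change of -0.13 ± 0.06 (edgeR adjusted p = 0.221).

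Of 13 fibrillin microfibril genes, the matrix fibre to which ADAMTS10 is tied, 7 were tested and 0 passed in edgeR (2 at an unadjusted p under 0.05, and 0 with DESeq2). In 4 other settings 1 of them fell, and 2 fell without PIG-LONA replicate 2. LTBP4 and LTBP3, latent TGF-beta binding proteins and the most abundant of the list, had log2 fold changes of -0.04 ± 0.06 (edgeR adjusted p = 0.789) and 0.01 ± 0.08 (edgeR adjusted p = 0.974). The list median was lower, at -0.27. The groups did not overlap in 4 of the 7, all lower in PIG-LONA, against 24.4% lower and 23.7% higher over all genes. Among other inhibitors 3 of 6 were tested and 0 passed in edgeR (1 at an unadjusted p under 0.05, and 0 with DESeq2). TIMP3 was at 567 and 596 CPM against 568 and 563 CPM (-0.04 ± 0.04, edgeR adjusted p = 0.600), and RECK, a membrane-anchored inhibitor of MMPs, was at -0.17 ± 0.06 (edgeR adjusted p = 0.121) and fell in 1 of 12 other settings, without PIG-LONA replicate 1.

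A list of 14 genes held convertases, genes of the plasminogen system, BSG and the granule serine proteases CTSG, ELANE and PRTN3. Of these 12 were tested, of which 2 fell and 1 rose. SERPINB2, a serpin that blocks plasminogen activators, was among those that fell, at 15.1 and 15.9 CPM in PIG-EMPTY against 7.22 and 8.01 CPM in PIG-LONA (log2 fold change -1.02 ± 0.09, edgeR adjusted p = 5.52e-07). PRTN3, a granule serine protease, rose by 0.25 ± 0.04 (edgeR adjusted p = 0.000437).

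ADAM10 and ADAM17 depend on partner proteins that carry them to the cell surface. Of 9 trafficking partners 8 were tested and 2 fell. RHBDF2, the iRhom that carries ADAM17 to the surface in immune cells, was at 26.9 and 29.1 CPM in PIG-EMPTY against 21.3 and 23.2 CPM in PIG-LONA (log2 fold change -0.33 ± 0.07, edgeR adjusted p = 0.00424). TSPAN14, a tetraspanin that escorts ADAM10, was at -0.19 ± 0.05 (edgeR adjusted p = 0.0324). RHBDF2 did not pass without PIG-EMPTY replicate 2 or without the low-count filter, and TSPAN14 lost its call in 5 of 12 other settings.

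A list of 33 genes held substrates of ADAM10 or ADAM17 and CX3CR1, the receptor of the shed ligand CX3CL1. Of these 22 were tested, of which 8 fell, CX3CR1 included (log2 fold change -0.30 ± 0.06, edgeR adjusted p = 0.00393), and 1 rose. The falls numbered 4 with DESeq2, 5 with TMM factors from genes off chromosome 6, 3 when PIG-EMPTY replicate 2 was left out and 3 without the low-count filter. CSF1R, the receptor of the macrophage growth factor CSF1, had 174 and 240 counts in PIG-EMPTY against 91 and 149 in PIG-LONA (log2 fold change -0.92 ± 0.15, edgeR adjusted p = 0.000593). The scavenger receptor CD163 was at -1.05 ± 0.08 (edgeR adjusted p = 8.99e-08) and the TNF receptor TNFRSF1B at -0.25 ± 0.04 (edgeR adjusted p = 0.000746). ALCAM, an adhesion molecule, was the 1 that rose, from 22.7 and 20.3 CPM to 27.3 and 30.6 CPM (0.44 ± 0.07, edgeR adjusted p = 0.000538).

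MMP8 and MMP9 belong to the specific and gelatinase granules of neutrophils. Of 17 other genes of those granules, 6 had 0 counts (CEACAM8, CRISP3, OLFM4, CD177, PGLYRP1 and FOLR3) and 6 were tested. Over the 4 libraries SLPI (6.01 CPM per kb), TCN1 (2.68), FCN1 (1.70) and CHI3L1 (1.504) had higher mean levels than MMP8 (1.17). In PIG-EMPTY alone, however, MMP8 (1.47 and 1.56 CPM per kb) was above CHI3L1 (1.31 and 1.22). The groups did not overlap in any of the 6 tested genes, 3 lower and 3 higher in PIG-LONA, against 48.0% of all genes. TCN1 (log2 fold change 0.48 ± 0.15, edgeR adjusted p = 0.057) and CHI3L1 (0.45 ± 0.14, edgeR adjusted p = 0.0646) were higher, and SLPI was lower (-0.50 ± 0.16, edgeR adjusted p = 0.0592). These 3 genes did not pass. The haptoglobin gene HP (-0.61 ± 0.17, edgeR adjusted p = 0.0279) and the ficolin gene FCN1 (-0.51 ± 0.11, edgeR adjusted p = 0.00455) fell, and 0 rose, but 2 did without PIG-LONA replicate 2. HP did not pass with DESeq2, without PIG-EMPTY replicate 2 or without the low-count filter, and FCN1 not without that filter.

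Matrix proteins that metalloproteinases cut were tested in 14 of 23 cases, and 6 fell and 0 rose. NID1, a basement membrane linker, was at 13.5 and 14.3 CPM in PIG-EMPTY against 8.85 and 9.31 CPM in PIG-LONA (log2 fold change -0.61 ± 0.09, edgeR adjusted p = 0.000193). THBS1, VCAN and FN1 were at -2.32 ± 0.13, -0.74 ± 0.05 and -0.70 ± 0.05. Of 13 transcription factors known as regulators of MMP genes, which were SP1, STAT3 and members of the AP-1, ETS and NF-kB families, all 13 were tested, of which 2 fell and 1 rose. FOS was at 35.5 and 34.8 CPM against 27.3 and 26.6 CPM (-0.38 ± 0.06, edgeR adjusted p = 0.000244), ETS1 was at -0.30 ± 0.05 (edgeR adjusted p = 0.000853) and ETS2 at 0.15 ± 0.04 (edgeR adjusted p = 0.0253). ETS2 did not pass with DESeq2, without the low-count filter or with either of the PIG-EMPTY libraries left out. Whether any of these genes acts on the metalloproteinase genes was not tested.

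**Figure D4:**
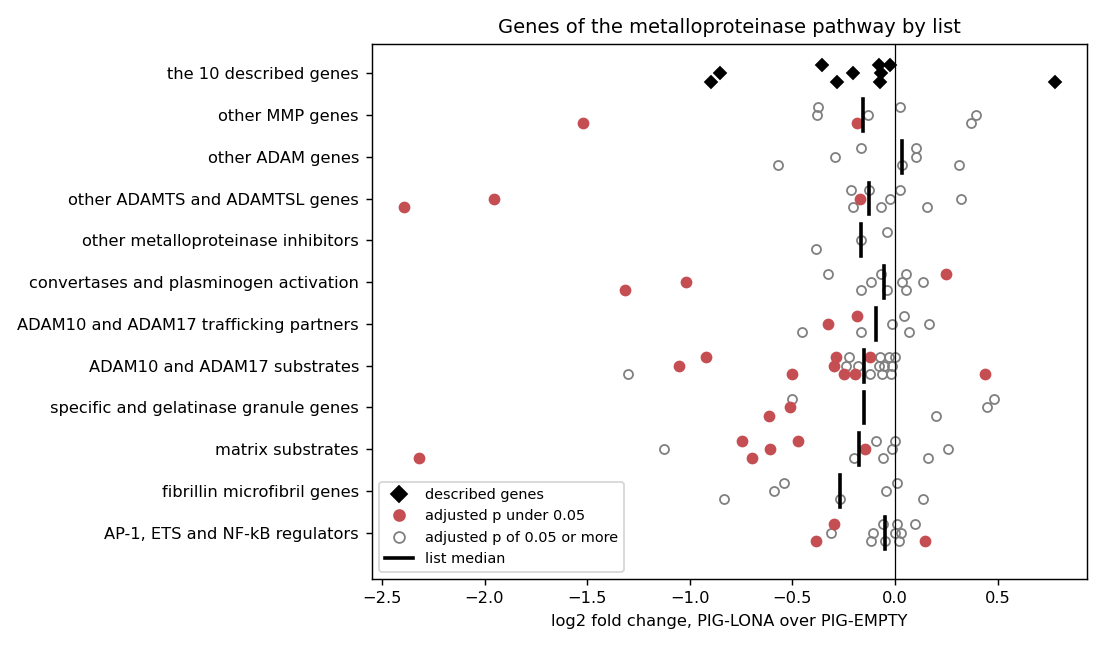
Log2 fold change in PIG-LONA over PIG-EMPTY of the 10 described genes (black diamonds) and of every tested gene of the 11 lists, filled red where the edgeR adjusted p is under 0.05 and open where it is not, with a black bar at each list median. The row of AP-1, ETS and NF-kB regulators also holds SP1 and STAT3, and the row of substrates also holds CX3CR1. The row of convertases and plasminogen activation also holds BSG, CTSG, ELANE and PRTN3. Most red points lie left of 0, and the 3 to the right are PRTN3, ALCAM and ETS2.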

How the data were processed

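The authors deposited raw read counts per Ensembl gene for 4 libraries of polyadenylated RNA. A directional NEBNext kit was used, per the labels' protocols. Reads were checked with FastQC 0.11.4, and STAR 2.5, HTSeq and the build hg38 are also listed, per the submitters' processing notes. Neither the annotation release nor the strand setting is given in the sources used here. Symbols were matched for 60357 of 67062 rows. Coordinates and exon lengths came from GENCODE release 29, and promoter windows from RefSeq (GRCh38.p14).

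Counts were fitted with edgeR 4.0.16 in R 4.3.3: filterByExpr (minimum count 10, minimum total 15), TMM scaling, glmQLFit and glmQLFTest with group as the only term. The test was two-sided and p was adjusted by Benjamini-Hochberg over 15918 genes, with a threshold of 0.05. The biological coefficient of variation was 2.95%. The chi-square per gene between libraries was 1.76 in PIG-EMPTY and 4.67 in PIG-LONA, above the value of 1 for counting noise, and all 4 were kept apart.

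The 10 genes and the lists were chosen with earlier results of these data known. Named besides the 10 genes were, per list, up to 4 genes with the smallest p past the threshold or otherwise the 2 most abundant, and the most abundant MMP, ADAM, ADAMTS and inhibitor gene per kilobase. A list gene that this rule names is not reported here by name, and it is counted in its list.

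Alternatives were DESeq2 1.42.0 size factors, library totals, TMM without chromosome 6 genes, the DESeq2 test, voom in limma 3.58.1, no filter beyond 1 count, CPM of at least 1 in 2 libraries, the replicate number as a block, and each library left out.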

Additional observations from a re-analysis of the deposited data

How the results depend on the processing

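MMP8, MMP9 and ADAMTS10 kept their direction in all 12 other settings, as a description of genes chosen on this comparison. Their log2 fold changes ran from -0.906 to -0.805, from -0.939 to -0.851 and from 0.717 to 0.828. Those of MMP14 ran from -0.598 to -0.082, of MMP25 from -0.553 to -0.001 and of TIMP1 from -0.138 to -0.003. Because the 10 genes were chosen with this comparison known, their passing of a threshold in refits of the same libraries is not counted. The log2 fold change changed sign for 4 genes with a library left out: ADAM10 ran from -0.153 to 0.012 (positive without PIG-LONA replicate 1), ADAM17 from -0.045 to 0.003 and LTBP4 from -0.084 to 0.004 (both positive without PIG-LONA replicate 2), and LTBP3 from -0.046 to 0.064 (negative without replicate 2 of either group, -0.013 for PIG-LONA).

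Over all genes 1024 passed, 467 higher and 557 lower. With the DESeq2 test 473 passed, 219 higher and 254 lower, and without a filter beyond 1 count 334 passed, 140 higher and 194 lower. Leaving out 1 library gave 466 (without PIG-EMPTY replicate 2) to 2329 (without PIG-LONA replicate 1), 157 to 1220 higher and 309 to 1109 lower, and without PIG-EMPTY replicate 1 it was 644. Of the list genes 30 passed, against 18 with DESeq2, 16 without that filter and 17 (without PIG-EMPTY replicate 2) to 37 (without PIG-LONA replicate 1) with a library left out. Where a library was left out, the lone library of its group was assumed to vary like the others, and the cause of these shifts was not tested.

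The labels do not say that a replicate number marks a shared day, and the differences between replicates 1 and 2 were hardly correlated between the groups across genes (0.029). With the replicate number as a block 1101 genes passed, among them 3 of the 10, and 33 list genes did. MMP8, MMP14, MMP25, ADAM8 and ADAMTS10, the 5 genes of lowest count, had standard errors of 0.14 to 0.16 on the log2 scale, against 0.05 to 0.06 for the other 5.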
